A study of Mus musculus with 4 samples.

Results

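The regions described here are the 237 autosomal windows of 1 Mb in which CpG-poor sequence was least methylated, out of 2372 windows that could be ranked. A window was ranked if it held at least 50 CpG-poor sites, meaning CpGs with at most 4 listed CpGs (the site itself counted) within 100 bp on either side and at least 10 reads in all 4 libraries. Windows were chosen by their methylation in 2 libraries: the ranking value was the mean over these sites of the average of the 0-division and 1-division levels, and the lowest 10% are called the low windows. They are set beside the highest 10%, the 237 high windows. Since the 0-division and 1-division levels chose the windows, they are given below as a description. The levels of the control and >3-division libraries took no part in the choice, although their coverage, through the minimum of 10 reads, helped decide which sites and windows could be ranked.

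Methylation in mouse embryonic fibroblasts (MEFs) was read by RRBS, bisulfite sequencing of a reduced representation of the genome, which covers short MspI fragments and so favours CpG-rich sequence. All 4 libraries came from secondary, inducible MEFs of a 129/SvJ x C57/B6 hybrid, fibroblasts that carry doxycycline-inducible reprogramming factors. The control library was made from uninduced MEFs. The other 3 came from MEFs in which the factors had been induced with doxycycline for 96 hours and which had divided on average 0 times, 1 time or, per the cohort label, more than 3 times (3 or more in the sample's description). Per the labels, serum was 10% for growth, 15% with doxycycline and 0.5% for starvation, and the starved cohort is not named. Each group was 1 library, so no value has a replicate check, and intervals cover counting error only. The libraries held between 84606824 and 94775128 summed CpG reads, of which 3010091 to 3763018 fell on the CpG-poor sites of low windows.

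In mammalian DNA, CpGs outside CpG islands are methylated in most cells, while islands, which often mark promoters, are kept free of methylation. The zone beside an island, its shore, has intermediate and variable levels, and active distal enhancers carry short stretches of low methylation. Broad domains of partial methylation are also known from cultured fibroblasts; they tend to be poor in genes and in islands. Methylation is copied to the new strand by DNMT1 after replication, so that it can be diluted by divisions when copying falls behind.

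The low windows kept their low level in the libraries that had not been used to choose them. Over 47990 CpG-poor sites of low windows the mean methylation level was 62.3% in control and, with 0, 1 and >3 divisions, 62.2%, 62.5% and 54.3%. The 20177 CpG-poor sites of high windows stood at 84.0%, 83.8%, 83.9% and 77.2% in the same order. The difference of low from high windows was -21.76 points in control (95% interval -21.84 to -21.67) and -22.8 points after >3 divisions (-22.9 to -22.7). Single windows ranged in control from 45.4% to 66.8% around a median of 63.2% among low windows, and from 81.0% to 87.3% around 84.0% among high windows. In the >3-division library the low windows ranged from 38.1% to 62.1% (median 55.2%) and the high windows from 71.97% to 81.7% (median 77.0%). The groups did not overlap in either library: all 237 low windows lay below every high window. This is not particular to low windows. In control the upper quartile of all ranked windows, 80.2%, also lay below the lowest high window. In the >3-division library the median of all ranked windows, 68.8%, did so. Ranking on control alone would have picked 224 of the same 237 low windows, and ranking on the >3-division library alone 201.

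**Figure D1:**
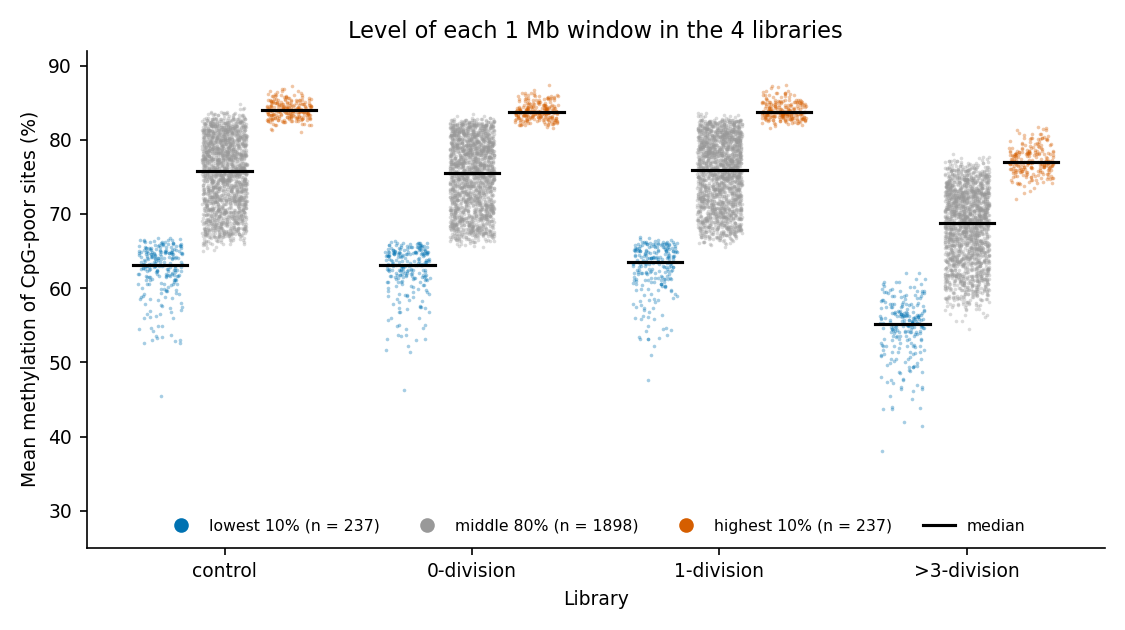
Mean methylation of CpG-poor sites (y axis, percent) of each ranked 1 Mb window in the 4 libraries (x axis), 1 point per window, with the median of each class as a black line. The low windows have medians of 63.2% (control) and 55.2% (>3 divisions) and do not overlap the high windows in any library; the 0- and 1-division levels chose the classes.

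The lowest window was on chromosome 15 from 102000000 to 102999999 (mm9), where 217 CpG-poor sites averaged 45.4% in control, and 46.3%, 47.6% and 38.1% after 0, 1 and >3 divisions. The next were on chromosome 11 from 96000000 (53.0%, 51.6%, 50.9% and 43.7% in the same order), chromosome 8 from 87000000 (52.6%, 51.4%, 52.2% and 45.5%) and chromosome 2 from 74000000 (52.5%, 52.2%, 53.1% and 41.9%). The fifth was on chromosome 4 from 125000000, with 53.1%, 52.9%, 53.2% and 43.7%. In all 5 of these windows the 3 libraries other than >3-division lay within 3 points of each other, and the >3-division library was the lowest. By general knowledge of the mm9 assembly, and not from the deposited files, the HoxC, HoxB and HoxD gene clusters lie in the windows of chromosomes 15, 11 and 2, and HoxA lies on chromosome 6 from 52000000. Hox genes encode transcription factors that set position along the body axis, and their clusters are rich in CpG islands. The HoxA window, singled out after its values were seen, was the 8th lowest and averaged 53.5% in control and 53.7% with 0 divisions. At the threshold the ranking values ran on without a gap: 66.05% (chromosome 4, 136000000) and 66.08% (chromosome 2, 170000000) were the last inside, and 66.09% (chromosome 6, 28000000) and 66.10% (chromosome 4, 140000000) the first outside. The highest windows were on chromosome 10 from 27000000 (86.6% in control), chromosome 15 from 43000000 (86.9%) and chromosome 14 from 10000000 (86.2%).

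What most low windows shared beyond the ranking was a high CpG-dense content. CpG-dense CpGs, those with at least 12 listed CpGs within 100 bp, numbered 579 per low window at the median (lowest 0, highest 2778), against 26 per high window (0 to 372) and 194 over all ranked windows. In 166 of 237 low windows this number was above that of every high window, and in 208 it was above the median of all windows. The upper quartile of all ranked windows, 420, was also above every high window. All listed CpGs numbered 1445 per low window at the median and 335 per high window. Across the 2372 windows the control level of CpG-poor sites correlated with the number of CpG-dense CpGs at Spearman's rho = -0.66 and Pearson's r = -0.61; the windows share a library, and both quantities depend on where MspI cuts. Among the low windows themselves the relation was weak (rho = -0.11, n = 237 windows). Most low windows thus listed more CpG-dense CpGs than the median ranked window, while 29 listed fewer. Whether any of them overlap partially methylated domains was not tested. No mm9 annotation of genes or nuclear lamina contact was used here.

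**Figure D2:**
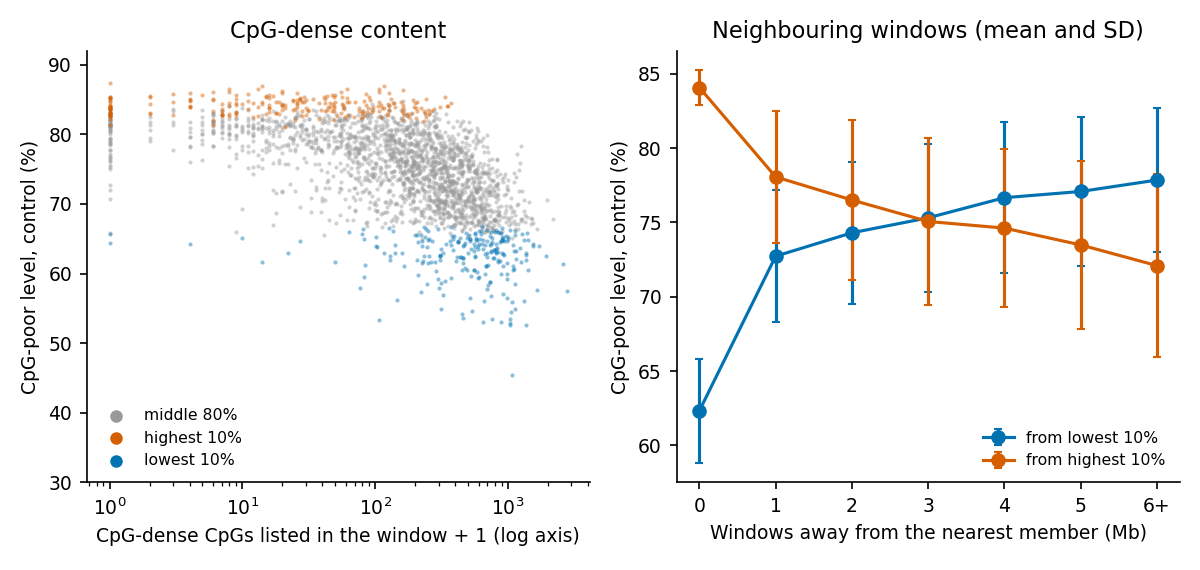
Left, CpG-dense CpGs listed per window plus 1 (x axis, log) against the CpG-poor level in control (y axis, percent), 1 point per window. Right, mean and SD over windows of the control level (y axis, percent) by distance in windows of 1 Mb from the nearest low or high window (x axis); low windows average 62.3% and windows next to them 72.7%.

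The low windows lay on all 19 autosomes, but unevenly. They made up 19.7% of the ranked windows of chromosome 11 (23 of 117), 17.7% of chromosome 2 (31 of 175) and 16.9% of chromosome 19 (10 of 59). On chromosome 1 they made up 3.14% (6 of 191) and on chromosome 3 3.95% (6 of 152). The 237 low windows formed 166 runs, of which 118 were single windows and 48 joined at least 2; the 237 high windows formed 182 runs. The longest run was 6 windows on chromosome 9 from 43000000 to 48999999, with window means of 59.3% to 65.6% in control and 50.03% to 58.1% after >3 divisions. A run of 5 windows on chromosome 11 from 94000000 to 98999999, which holds the second lowest window, ranged from 53.0% to 65.4% in control and held 6190 CpG-dense CpGs. A run of 4 windows on chromosome 19 from 4000000 to 7999999 averaged 61.0% in control and 54.3% after >3 divisions. Of all low windows, 119 lay in runs of at least 2. Windows directly beside a low window averaged 72.7% in control (SD 4.43 between 308 windows), against 62.3% (SD 3.51) in the low windows and 77.8% (SD 4.85, 1158 windows) at a distance of 6 windows or more. The step to the next window was larger than the whole rise beyond it, and this holds in part by construction, since a neighbour that is itself low counts as a low window.

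Inside a low window the level was not even. In bins of 100 kb with at least 10 CpG-poor sites, the control level of 1802 bins from low windows had a median of 63.8% and quartiles of 54.8% and 71.98%, with extremes of 6.17% and 91.3%. Of these bins 85.0% lay below the median of all windows, 75.8%, and 111 lay at or above the lowest high window. Middle windows, those ranked between low and high windows, were uneven too. Their 10313 bins had quartiles of 68.4% and 82.6%. Of these, 46.6% lay below the same median and 3348 lay at or above the lowest high window. The 853 bins of high windows had quartiles of 82.0% and 86.6%.

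Site by site, low windows held larger shares both of unmethylated and of intermediate CpG-poor sites. In control 16.5% of their sites were under 20% methylation and 41.4% between 20% and 80%, which left 42.1% at 80% or more. In high windows the shares were 0.734%, 22.4% and 76.8%. The 0-division library gave 16.3%, 41.9% and 41.8% in low windows and the 1-division library 16.3%, 41.2% and 42.5%. After >3 divisions 23.4% were under 20%, 44.8% between and 31.8% at 80% or more. The number of sites under 20% went from 7940 in control to 11236. This shift was not particular to low windows. In high windows the shares after >3 divisions were 1.86%, 45.0% and 53.2%. In middle windows they were 10.9%, 45.0% and 44.1%, from 6.98%, 33.5% and 59.5% in control. Median depth at CpG-poor sites of low windows was 60 reads in control, then 63, 59 and 44 with 0, 1 and >3 divisions. In high windows it was 55, 60, 49 and 41.

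**Figure D3:**
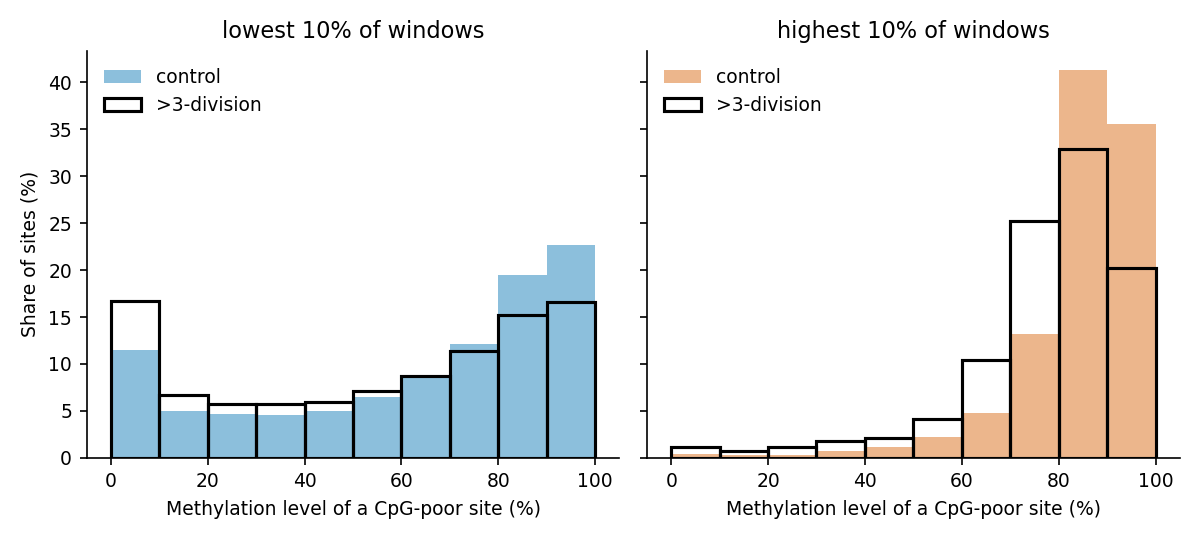
Share of CpG-poor sites (y axis, percent) by their methylation level in steps of 10 points (x axis) in low windows (left) and high windows (right), filled for control and outlined for the >3-division library. Low windows have a peak near 0 that high windows lack: 16.5% of sites are under 20% in control, against 0.734%.

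Part of the gap went with nearness to CpG-dense sequence. Within 1 kb of a CpG-dense CpG, which takes in shores, low windows averaged 27.6% in control and 23.0% after >3 divisions, and these sites made up 10.5% of all their CpG-poor sites. In high windows sites that near made up 2.11% and averaged 77.9% and 73.0%. In middle windows they made up 5.56% and averaged 36.6% and 32.2%, so the large contrast was with high windows. From 1 to 5 kb the low windows averaged 60.8% in control, from 5 to 20 kb 67.4% and at 20 kb or more 67.5%. The high windows averaged 84.3%, 85.0% and 84.1% in the same order. A gap of 16.6 points therefore remained at the 22703 low-window sites farthest from a listed CpG-dense CpG. CpG-dense sequence that the libraries did not cover does not enter these distances. Weighted to the high windows' mix of distances, the low windows would average 66.4% in control, which leaves 17.6 points or 80.9% of the gap; the same weighting leaves 84.7% of it in the >3-division library. Of the 7940 low-window sites under 20% in control, 53.6% lay within 5 kb of a CpG-dense CpG and 26.7% at 20 kb or more. For the 16474 such sites of middle windows the shares were 47.8% and 38.3%. At 20 kb or more 9.33% of low-window sites were under 20%, against 0.468% of high-window sites.

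**Figure D4:**
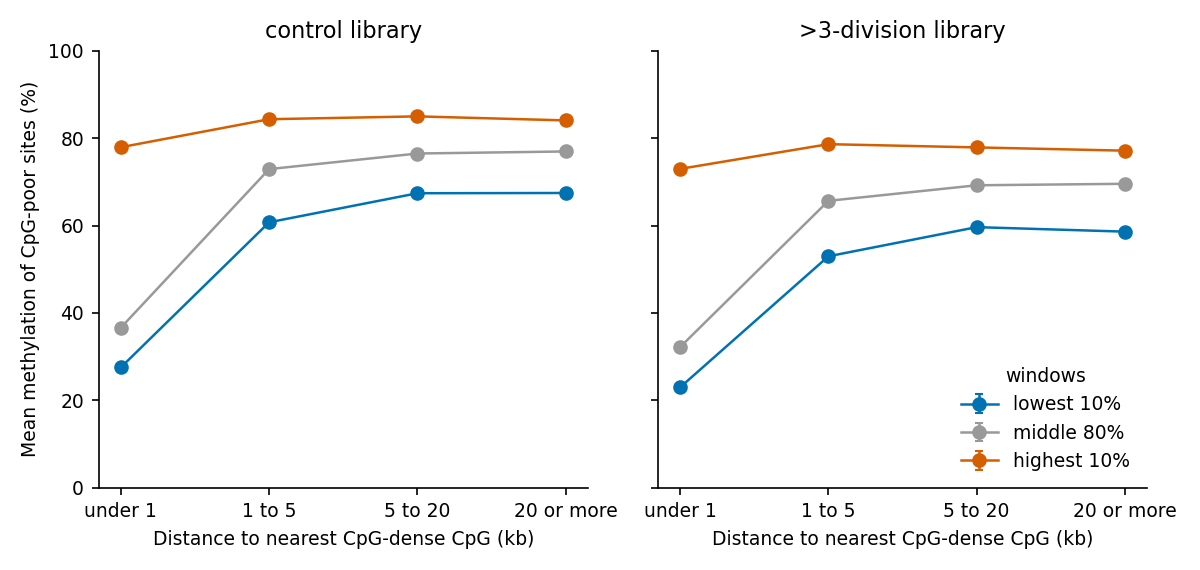
Mean methylation of CpG-poor sites (y axis, percent) by distance to the nearest CpG-dense CpG (x axis, kb) in control (left) and the >3-division library (right), for low, middle and high windows; bars, mostly hidden by the points, are 95% counting intervals. Low windows rise from 27.6% to 67.5% in control and stay below the other classes at every distance.

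At sites the ranking did not use, low windows also lay below high windows. Sites of intermediate density (between CpG-poor and CpG-dense) averaged 38.8% in control and 35.6% after >3 divisions in low windows, against 80.3% and 76.6% in high windows. CpG-dense sites of low windows stood at 4.96% in control and at 5.76%, 4.998% and 4.41% with 0, 1 and >3 divisions. In high windows they averaged 25.6%, 26.2%, 25.6% and 23.9% in the same order. Middle windows averaged 6.87% at CpG-dense sites in control, close to low windows, and 57.9% at sites of intermediate density. Per window, the control level of CpG-dense sites had a median of 4.13% in 235 low windows with such sites and of 74.9% in 199 high windows. The latter gives each window the same weight, while the mean of 25.6% is over 8218 CpG-dense sites. In 1828 middle windows the median per window was 5.60%, so at CpG-dense sites the large contrast was with high windows. Across the 2262 windows with both kinds of site, Spearman's rho between their control levels was 0.43, and across 235 low windows it was -0.082.

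Setting cells with more than 3 divisions against control asks whether the windows that were low already lost more or less than others. CpG-poor sites of low windows fell by 7.94 points (95% interval of the difference -8.02 to -7.86) and those of high windows fell by 6.87 points (-6.99 to -6.75). The odds ratio of methylation, which compares both libraries site by site and does not depend on the starting level in the way points do, was 0.613 (0.610 to 0.616) in low and 0.632 (0.628 to 0.637) in high windows. The difference between these falls was -1.07 points (-1.21 to -0.92), and the odds ratio of low windows was 0.970 times that of the high windows (0.962 to 0.978). This difference is beyond counting error but small beside the spread between windows: the fall had an SD of 1.95 points between low and 1.40 points between high windows, and 71 of 237 low windows fell by less than the median high window. With a minimum of 20 reads per site the difference between the falls was -0.51 points, and with reads pooled over sites -8.83 points. The >3-division library held 0.680 times the control reads at low-window sites of 80% or more and 1.49 times at sites under 20%, and pooling gives the deeper sites more weight. With each site thinned at random to equal depth in all libraries and equal weight per site, the difference was -1.12 to -1.01 points over 10 draws. Thinning evens out read numbers but on average keeps each site's share of methylated reads. Whether the uneven depth went with the falls themselves was not tested. Middle windows changed by -7.196 points (-7.23 to -7.16), with an odds ratio of 0.636 (0.635 to 0.637). In sets of 10% of the ranked windows, by rising ranking value, the odds ratio did not change steadily. It was 0.613 in the lowest set, 0.631 in the next, 0.6497 in the 5th, 0.621 in the 9th and 0.632 in the highest.

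All 237 low windows were called lower in the >3-division library (Cochran-Mantel-Haenszel test, with each site as its own stratum, Benjamini-Hochberg adjusted p under 0.05). Of all ranked windows 99.92% were called lower and 0.0422% higher, so this count says nothing particular to low windows. The falls of low windows ranged from -14.0 to -2.97 points around a median of -7.92. The window on chromosome 9 from 28000000 changed by -14.0 points (SE 1.15), from 61.6% in control to 47.6% on 51 sites, with 61.5% and 60.4% in the 0- and 1-division libraries. Chromosome 13 from 57000000, which lists no CpG-dense CpG, changed by -13.9 points (SE 0.764), from 64.3% to 50.5% on 167 sites, with 64.6% and 63.9% in the 0- and 1-division libraries. These windows lay closer than their errors and change places with the settings: with a minimum of 20 reads they changed by -12.8 and -13.8 points, and with CpG-poor set at 2 CpGs by -10.5 and -16.8 points. Both had few sites under 20% in control, 3.92% and 4.79%, against 16.5% of all low-window sites. Chromosome 7 from 152000000, chromosome 13 from 72000000 and chromosome 4 from 152000000 fell to 51.0%, 46.3% and 47.6% after >3 divisions, changes of -13.3, -12.6 and -12.2 points. The smallest falls, named after their values were seen, were changes of -2.97 points on chromosome 13 from 21000000, -3.29 points on chromosome 2 from 9000000 and -3.84 points on chromosome 13 from 34000000. The last window had an odds ratio of 0.831 and an adjusted p of 0.000385 (Cochran-Mantel-Haenszel test). No low window rose. The sizes of these falls depend on the equal weight per site. With reads pooled, the windows of the smallest falls went from 55.998% to 43.5%, 61.4% to 48.6% and 62.4% to 52.8%, in the order named. Pooled levels went from 63.8% to 49.7% on chromosome 13 from 57000000 and from 60.005% to 41.9% on chromosome 9 from 28000000. Over all CpG-poor sites of low windows they went from 62.5% to 46.5%.

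Over sites, the fall was larger in low windows with little CpG-dense sequence, but windows varied more than this difference. The 60 windows with the fewest CpG-dense CpGs (0 to 307 each) fell by 8.95 points over their sites (-9.15 to -8.75), with an odds ratio of 0.593 (0.587 to 0.5996). The other windows, in sets of 59 by rising CpG-dense content, changed by -7.85, -7.81 and -7.58 points with odds ratios of 0.618, 0.619 and 0.616. The windows with the fewest CpG-dense CpGs had on average 44.4% of their sites between 20% and 80% in control, against 38.2% in those with the most, and 14.4% under 20%, against 18.9%. Averaged over windows the change was -8.64 points (SD 2.45) in these 60 windows and -7.72, -7.58 and -7.58 points (SD 1.89, 1.62 and 1.55) in the others, and the 60 windows include the smallest fall of all. Between the number of CpG-dense CpGs and the change, Spearman's rho was 0.21 across the 237 low windows and 0.036 across all 2372. This division of the low windows was made after the data were seen.

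Because sites of intermediate level can move further, sites were also compared within bins of starting level, the mean of the 0- and 1-division libraries that also ranked the windows. The bins did not make control levels alike: between 20% and 40% low windows started at 30.4% and high windows at 35.5%. At sites between 60% and 80% low windows went from 71.6% in control to 59.2% in the >3-division library, and high windows from 75.4% to 66.0%. The changes differed by -2.95 points there (-3.34 to -2.57), and the odds ratios were 0.598 (0.593 to 0.603) and 0.671 (0.661 to 0.680). Between 40% and 60% the odds ratios were 0.602 (0.596 to 0.608) and 0.65 (0.631 to 0.670), and the changes differed by -1.09 points (-2.01 to -0.165). Between 20% and 40% the odds ratios were 0.626 and 0.698, and the changes differed by -1.53 points (-2.94 to -0.114). At sites of 80% or more they were 0.614 (0.609 to 0.619) and 0.614 (0.608 to 0.619), and the changes of -6.38 and -6.13 points differed by -0.248 points (-0.424 to -0.0721). Under 20% the changes of -2.12 and -2.23 points could not be told apart at this depth (difference 0.12 points, -1.02 to 1.26), with 142 such sites in high windows. At the starting mix of the high windows, the low windows would have changed by -7.63 points, which differs from the high windows by -0.758 points (-0.914 to -0.602). By counting error alone, the larger fall of low windows in points was thus seen in every bin from 20% up. At 80% or more the odds ratios were nearly the same. The intervals of the bins from 20% to 40% and from 40% to 60% ended at -0.114 and -0.165 points. They allow for no extra spread between libraries.

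**Figure D5:**
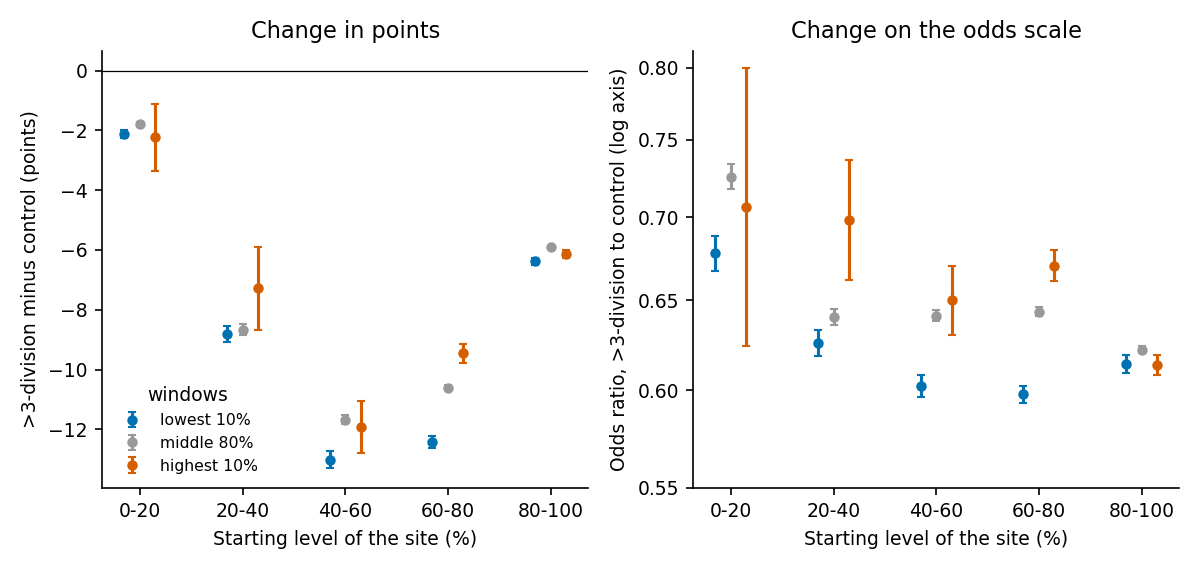
Change from control to the >3-division library by starting level of the CpG-poor site (x axis, percent, mean of the 0- and 1-division libraries), in points (left) and as an odds ratio on a log axis (right), for low, middle and high windows with 95% counting intervals. From 20% to 80% the odds ratios of low windows lie below those of high windows (0.598 against 0.671 between 60% and 80%), and at 80% or more both are 0.614.

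At single CpGs, 3892 of 47990 CpG-poor sites of low windows were called lower in the >3-division library, 8.11%, and 68 were called higher (at least 20 points and an adjusted p under 0.05 by Fisher's exact test with Benjamini-Hochberg correction). Over all CpG-poor sites of ranked windows 6.25% were called lower and 0.131% higher, and in high windows 3.68% were called lower. Among sites between 20% and 80% at the start the shares called lower were 13.7% in low windows, 11.6% in all and 7.53% in high windows. Among sites of 80% or more they were 5.46%, 3.88% and 2.64%. The band from 20% to 80% did not match starting levels: 9975 of its 20039 sites in low windows lay between 60% and 80%, and 3529 of its 4358 sites in high windows. With read counts scaled down by the extra-binomial spread seen between the control and 1-division libraries, 5.05% of low-window and 1.89% of high-window sites were called lower, and over 10 draws to equal depth 4.69% to 4.81% and 1.64% to 1.73%.

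Over neighbouring CpGs joined into clusters (at least 3 CpGs, at most 100 bp apart, of any density), 2074 of 17623 clusters in low windows were called lower, 11.8%, and 131 higher (same test, at least 10 points). The shares over all ranked windows were 11.0% lower and 0.594% higher, and in high windows 8.82% were lower. Among clusters of 20% or more in control, 22.1% of those in low windows were called lower, against 16.4% in all ranked windows and 9.64% in high windows. This floor kept 9150 of 17623 clusters in low and 4823 of 5284 in high windows. It does not match their levels, and it uses the control library that the test also uses. Clusters of CpG-poor sites were called lower in 19.9% of 4286 cases in low windows, against 16.6% of all such clusters; 0.957% were called higher, against 0.912%.

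The largest losses in low windows were 2 neighbouring clusters on chromosome 4 in the fifth lowest window. From 125747492 to 125747526 the level was 71.0% in control (Wilson 95% interval 65.4% to 76.0%, 279 reads), 70.0% and 74.2% with 0 and 1 divisions, and 6.06% with >3 (3.10% to 11.5%, 132 reads). From 125747365 to 125747387 it was 72.2%, 78.8%, 81.1% and 7.44%, the last on 121 reads. These clusters lie near CpG-dense sequence, with 11.2 and 14.0 listed CpGs within 100 bp on average. On chromosome 17 from 71670771 the level was 72.9%, 73.3%, 82.3% and 14.3% (56 reads). With a gap of 200 bp this cluster joins a longer one that changed by -11.3 points in place of -58.6 points. On chromosome 19 from 7452976 the level was 76.4%, 70.9%, 71.7% and 18.3% (71 reads). On chromosome 9 from 20741022 it was 89.3%, 83.3%, 86.3% and 33.3% (54 reads). In these 5 clusters the >3-division library stood apart from the other 3, which lay between 70.0% and 89.3%.

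Among gains, chromosome 19 led, from 4042274 to 4042284, where 3 CpGs stood at 18.4% in control (49 reads), then at 64.9%, 82.4% and 95.5% with 0, 1 and >3 divisions (37, 34 and 66 reads). Here all 3 doxycycline libraries were above control. On chromosome 2 from 170046734 the levels were 19.7%, 37.7%, 40.3% and 54.0% in the same order, on 173, 77, 119 and 87 reads. On chromosome 8 from 94323447 they were 50%, 56.1%, 48.5% and 80.6%, on 60, 57, 33 and 72 reads (adjusted p = 0.00348, Fisher's exact test). By the same exact test this call was lost in 5 of 10 draws to equal depth (adjusted p from 0.00980 to 0.356) and with scaled read counts (adjusted p = 0.0682). With a gap of 200 bp this cluster joins a longer one that differs by -4.61 points, and the chromosome 19 cluster joins one that gained 9.46 points.

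At the other densities of the same windows the >3-division library was lower as well. Sites of intermediate density fell by 3.20 points in low and by 3.69 points in high windows, with odds ratios of 0.733 (0.729 to 0.736) and 0.718 (0.713 to 0.723). CpG-dense sites fell by 0.547 points in low and by 1.70 points in high windows, with odds ratios of 0.798 (0.792 to 0.804) and 0.594 (0.584 to 0.603). At CpG-dense sites the order was thus the opposite of that at CpG-poor sites, with the smaller relative change in low windows. The log odds ratio of low minus high windows was 0.296 there and positive under all 15 alternatives it was computed for, but its size ranged from 0.108 to 0.845. Some of these alternatives, such as scaled read counts or a limit on the CpG-poor sites used, could not change this log odds ratio. It was 0.120 without the sites of highest coverage, 0.108 with the lowest and highest 5% of windows, 0.838 with windows shifted by 0.5 Mb and 0.845 with at least 100 sites per window. The order at intermediate density did not hold: the log odds ratio of low minus high windows was 0.020, and -0.0030 without the sites of highest coverage.

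For the libraries that chose the windows only levels are given. CpG-poor sites of low windows differed from control by -0.060 points with 0 divisions and by 0.22 points with 1 division, and those of high windows by -0.20 and -0.10 points. At CpG-dense sites, which the ranking did not use, the 0-division library was above control by 0.80 points in low windows (0.76 to 0.83) and by 0.57 points in high windows (0.46 to 0.69), while the 1-division library differed by 0.041 and 0.011 points. The rise of the 0-division library was thus present in both sets of windows.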

How the data were processed

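RRBS of 4 MEF libraries was analysed. Per the labels' protocols, MspI fragments of 40 to 220 bp were selected. For every CpG the authors deposited the methylated and the unmethylated read count, joined in 1 field, on mm9 per the submitters' processing notes. The files have no header: 62.3% of control CpG-dense CpGs have a first number of 0, so it is the methylated count. The aligner, caller, conversion check and duplicate handling: not given in the sources used here. Positions are printed as deposited, since their base (0 or 1) is not stated.

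Levels were computed as methylated reads over all reads at the 1045368 CpGs with at least 10 reads in all 4 libraries. Windows are whole multiples of 1 Mb. Means weight sites equally; intervals (95%) use binomial variances. Windows were tested with the Cochran-Mantel-Haenszel test and pooled with Mantel-Haenszel odds ratios, CpGs and clusters with two-sided Fisher's exact tests adjusted over all 1045368 CpGs or 99566 clusters. With 1 library per group, tests compare libraries, and CpGs of the same read are counted separately, so p-values are too small. Scripts (Python 3.11.15, scipy 1.17.1) were tested on simulated data. Windows and clusters to name were the 5 lowest and 3 highest windows, those at the threshold, the largest falls, the longest runs, and the 5 largest losses and 3 largest gains among called clusters. Thinning to equal depth was drawn 10 times, added after 2 draws had differed in 1 call. Members, classes and lists were chosen with earlier results of these data known. The annotation at hand is on GRCm38, so no gene or sequence was read by position.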

Additional observations from a re-analysis of the deposited data

How the results depend on the processing

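Levels and falls of low and high windows kept their direction under all alternatives run. The gap in control lay between -25.1 and -16.7 points, the fall of low windows between -16.0 and -7.23 points, and the extra fall between -8.83 points (pooled reads) and -0.508 points (at least 20 reads). In log odds it lay between -0.069 and -0.0081, the latter with the lowest and highest 20% of windows. The share of low-window CpG-poor sites called lower was 8.11%, and 4.77% at equal depth in the first of 10 random draws and 5.05% with counts divided by the overdispersion (1.31 for CpGs, 1.68 for clusters); in high windows it was 3.68%, 1.64% and 1.89%. Clusters called lower made up 11.8%, and 7.14% with the overdispersion, 4.36% with a minimum of 20 points and 7.56% with a gap of 50 bp. The difference between low and high windows at intermediate density (0.020 in log odds) turned to -0.0030 without the sites of highest coverage and to -0.014 with CpG-poor set at 2 CpGs, and was 0.0017 with windows ranked on sites over 5 kb from CpG-dense sequence; the cause was not tested. That last ranking and the weighting to equal distance or starting level were chosen after the data were seen, as was leaving out windows that list no CpG-dense CpG. Ranking on sites over 5 kb away kept 161 of the 237 low windows among its 234, and a limit of 2 CpGs kept 135 among 180. The gain at chromosome 8, 94323447, was -4.61 points with a gap of 200 bp. No paired analysis was possible because each group has 1 library.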
